A study of Mus musculus with 10 samples.

Results

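The 36 interferon-stimulated genes described here are the transcripts best known as the readout of interferon signalling, and they were chosen by name as rows of a gene expression table. All 36 symbols were found among the 53974 genes of the table, and all 36 were among the 17555 genes that passed a filter on low values. Chromatin regions were added where they lay within 1000 bp of either end of 1 of these genes, which gave 8 of the 16600 regions of the deposited comparison. The libraries came from mouse retina after optic nerve crush (ONC), an injury that severs the axons of retinal ganglion cells (RGCs). Every mouse was C57BL/6, 8 to 10 weeks of age by its label, and carried *Arid1a* alleles flanked by loxP sites (Arid1a fl/fl). WT libraries came from retinas injected with AAV2-GFP and kept the genotype Arid1a fl/fl, while cKO libraries came from retinas injected with AAV2-Cre and are labelled Arid1a del/del. Virus was injected 2 weeks before ONC and cells were taken 3 days after it, so both labels share the injury and an AAV2 injection. The study gives a lower titer for AAV2-Cre than for AAV2-GFP, so the labels also differ in the dose of virus. The part of that dose in the differences below was not tested. No uninjured retina was compared here. Both viruses used the CMV promoter, which is not restricted to RGCs, and each sample pooled 4 to 5 retinas. Cells were stained with an antibody to Thy1.2, a surface protein of RGCs that mouse T cells also carry, and sorted as Thy1.2-positive cells without the dead-cell dye. For RNA-seq there were 3 WT and 3 cKO libraries, and for the assay for transposase-accessible chromatin (ATAC-seq) 2 of each.

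Interferons are secreted antiviral proteins. Type I interferons bind the receptor chains IFNAR1 and IFNAR2, and the kinases JAK1 and TYK2 then activate transcription factors that join IRF9 and bind the interferon-stimulated response element (ISRE) in target promoters. Interferon gamma, a product of activated T cells and natural killer (NK) cells, acts through IFNGR1 and IFNGR2 and leads to binding at the gamma-activated site (GAS), and the target genes of both kinds of interferon overlap. The induced proteins sense viral RNA, block its translation, degrade it, tag proteins with ISG15 or hold virions at the membrane. In the retina, microglia, infiltrating leukocytes and glia as well as neurons can respond to interferon.

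The labels were first compared with the RNA. *Arid1a*, the targeted gene, had 18.8, 11.7 and 14.1 TPM (transcript abundance per length, scaled to 1 fixed sum per library) in replicates 1, 2 and 3 labelled WT and 18.8, 27.9 and 25.0 TPM in those labelled cKO. Its RNA was therefore not lower under the label cKO (log2 fold change 0.66, standard error or SE 0.28, limma adjusted p = 0.274), and each direction below is given by label. A whole-gene TPM cannot show whether the part between the loxP sites was lost. By staining, the study reports less ARID1A protein in RGCs after AAV2-Cre, which these RNA values do not measure. Markers of RGCs, the labelled cell type, were uneven. *Pou4f2*, an RGC-defining transcription factor, was listed at 0 in 5 libraries and at 0.143 TPM in replicate 3 labelled cKO, and *Rbpms*, a pan-RGC marker, had 1.82 to 6.43 TPM. Others of the list were higher, with 51.9 to 129 TPM of *Thy1*, the gene of the sorted protein, 51.9 to 104 TPM of *Isl1*, which bipolar and amacrine cells also express, and 5.47 to 20.6 TPM of *Nefl*, a neurofilament gene. Summed over 7 markers of rod photoreceptors, the libraries had 12166 to 47441.5 TPM. Correlations between libraries across genes, which are not independent, were 0.862 to 0.953 within a label and 0.851 to 0.918 between labels. In bulk samples of this kind, fewer cells of a type and less RNA per cell cannot be told apart. Sequencing depth cannot be read from TPM, so its precision in reads is unknown and intervals of counting error are not given.

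Promoter sequences were searched for the response element through which type I interferon acts. RefSeq promoters on GRCm38.p6, each running from 250 bases before to 50 bases after a gene start, were found for 27 of the 36 genes. *Zbp1*, *Mx1*, *Mx2*, *Oas2*, *Rtp4*, *Dhx58*, *Parp14*, *Parp9* and *Usp18* had no entry. The core of the ISRE was searched on both strands as GAAA, any 2 bases and GAAA again, with overlapping matches allowed, so a match on the other strand reads TTTC at both ends. Of the 27 genes with a promoter, 13 held it (48.1%), beside 3.44% of all 32851 promoters and 3.99% of the 27025 genes that have one. More than 1 match stood in the promoters of 7 of the 13. A match is a description of these letters and was not tested for binding. The matches follow, 5′ to 3′ along the gene's own strand with 12 bases on each side where the promoter allowed it, and capitals mark the bases covered by matches.
*Ifih1* (chr2:62646206-62646235, - strand): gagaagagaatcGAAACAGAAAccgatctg
*Ddx58* (chr4:40239802-40239835, - strand): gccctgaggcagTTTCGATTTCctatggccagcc
*Isg15* (chr4:156200863-156200908, - strand): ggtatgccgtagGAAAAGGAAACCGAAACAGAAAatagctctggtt
*Oas3* (chr5:120777713-120777746, - strand): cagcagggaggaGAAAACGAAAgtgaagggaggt
*Oas1a* (chr5:120907518-120907557, - strand): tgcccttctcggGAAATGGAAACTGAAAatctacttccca
*Trim30a* (chr7:104465208-104465241, - strand): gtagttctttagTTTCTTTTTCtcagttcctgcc
*Ifitm3* (chr7:141010704-141010754, - strand): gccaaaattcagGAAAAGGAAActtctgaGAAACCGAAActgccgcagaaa
*Bst2* (chr8:71537575-71537614, - strand): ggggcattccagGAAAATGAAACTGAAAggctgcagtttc
*Rsad2* (chr12:26456551-26456584, - strand): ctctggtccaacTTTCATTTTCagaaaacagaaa
*Eif2ak2* (chr17:78882533-78882566, - strand): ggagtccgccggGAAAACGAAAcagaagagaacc
*Ifit3* (chr19:34583361-34583428, + strand): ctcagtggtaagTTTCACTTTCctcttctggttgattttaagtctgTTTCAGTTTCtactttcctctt
*Ifit3b* (chr19:34607757-34607824, + strand): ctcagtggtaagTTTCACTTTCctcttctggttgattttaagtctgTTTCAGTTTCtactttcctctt
*Ifit1* (chr19:34640773-34640825, + strand): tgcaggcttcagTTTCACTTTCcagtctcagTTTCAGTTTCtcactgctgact

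In *Isg15* the 3 overlapping matches ran from 78 to 57 bases before the gene start, and *Oas1a* and *Bst2* each held 2 overlapping matches. *Ifit3* and *Ifit3b*, near copies that lie in 1 cluster with *Ifit1* and *Ifit2* on chromosome 19, shared the same 68 bases around their matches. The matches of *Ifih1*, *Ddx58*, *Ifitm3* and *Eif2ak2* lay after the gene start, within the first 50 bases. *Trim30a* has 2 RefSeq starts with a match at each, and 1 is shown. The GAS core TTCNNNGAA, searched in the same way on both strands, was found in 7 of the 27 genes (25.9%), *Bst2*, *Eif2ak2*, *Ifi35*, *Ifit2*, *Ifitm3*, *Isg20* and *Oas1a*, beside 8.30% of all promoters and 9.55% of the genes that have one. Matches of both cores can overlap.

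Whole promoters are shown for 2 pairs of neighbouring genes whose RNA differed unequally between the labels, as described below. *Ifit1* and *Rsad2* held the ISRE core (in capitals), while *Ifit2* and *Cmpk2* did not, and *Ifit2* has a second RefSeq start with no match either.
*Ifit1* (chr19:34640639-34640938, + strand): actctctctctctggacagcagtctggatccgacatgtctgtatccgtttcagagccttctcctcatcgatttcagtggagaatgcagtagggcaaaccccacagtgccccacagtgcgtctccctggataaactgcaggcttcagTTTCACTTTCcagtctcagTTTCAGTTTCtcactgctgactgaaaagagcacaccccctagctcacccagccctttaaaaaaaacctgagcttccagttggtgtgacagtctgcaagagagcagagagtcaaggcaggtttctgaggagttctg
*Ifit2* (chr19:34550444-34550743, + strand): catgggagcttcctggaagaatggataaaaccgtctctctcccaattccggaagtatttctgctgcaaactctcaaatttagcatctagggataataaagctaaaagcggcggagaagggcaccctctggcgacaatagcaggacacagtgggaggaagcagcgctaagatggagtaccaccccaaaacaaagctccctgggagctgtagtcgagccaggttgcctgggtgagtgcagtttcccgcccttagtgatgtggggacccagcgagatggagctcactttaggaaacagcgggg
*Rsad2* (chr12:26456403-26456702, - strand): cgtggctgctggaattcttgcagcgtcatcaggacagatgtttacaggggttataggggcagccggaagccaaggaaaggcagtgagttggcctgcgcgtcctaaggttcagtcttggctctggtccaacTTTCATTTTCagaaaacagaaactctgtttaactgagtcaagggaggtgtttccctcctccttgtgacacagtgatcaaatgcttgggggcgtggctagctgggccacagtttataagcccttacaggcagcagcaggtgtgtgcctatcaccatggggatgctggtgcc
*Cmpk2* (chr12:26468965-26469264, + strand): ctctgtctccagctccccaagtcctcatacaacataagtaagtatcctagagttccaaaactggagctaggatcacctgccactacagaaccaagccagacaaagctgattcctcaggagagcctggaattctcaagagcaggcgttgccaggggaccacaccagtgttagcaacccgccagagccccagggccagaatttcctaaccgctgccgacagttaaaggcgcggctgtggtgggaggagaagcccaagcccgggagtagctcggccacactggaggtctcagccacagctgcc

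Mean RNA of all 36 interferon-stimulated genes was lower under the label cKO, but no single gene passed the adjusted test. All 36 genes had a log2 fold change below 0 between log2(TPM + 1) values, cKO minus WT, where 38.9% of all genes tested did. The median was -1.25 over the 36 genes and 0.16 over all genes tested. After scaling by the median of ratios, which moved the median of all genes to 0.01, it was -1.40 over the 36. No interferon-stimulated gene passed an adjusted p of 0.05 in limma (Benjamini-Hochberg over all genes tested), beside 0% of all genes lower and 0.0057% higher, and the 36 adjusted p-values ran from 0.124 to 0.485. At an unadjusted p under 0.05 from limma, 25 of the 36 were lower and 0 higher, beside 6.45% of all genes lower and 11.9% higher. A fit that also had the replicate number as a blocking term (the replicate block) gave 30, beside 8.52% of all genes lower. Of the 30, 24 were among the 25. For 22 of the 36, every library labelled cKO lay below every library labelled WT, beside 7.18% of all genes. With 3 libraries against 3, an exact permutation test of 1 gene gives no p under 0.1. The mean TPM under the label cKO was 22.2% of that under the label WT for *Xaf1* and 79.8% for *Ifit2*, the lowest and highest of the 36, with a median of 36.8%. The added 1 shrinks fold changes of genes with few TPM.

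**Figure D1:**
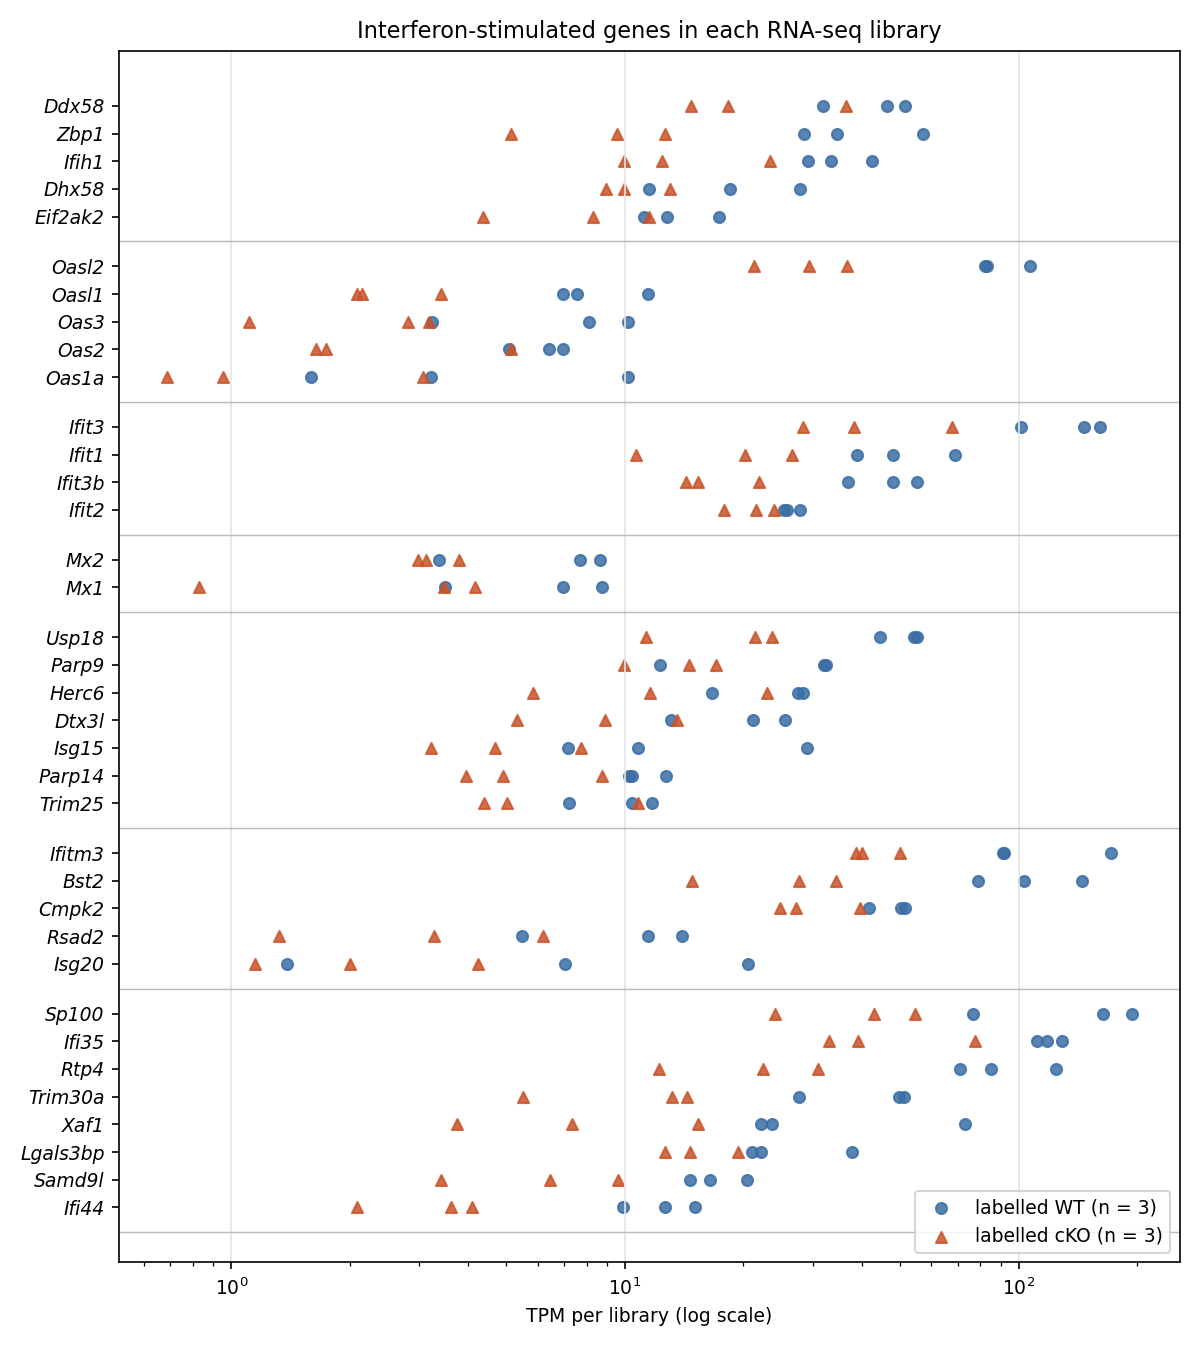
TPM of each of the 36 interferon-stimulated genes in each RNA-seq library, on a log axis, grouped by role, with circles for the 3 libraries labelled WT and triangles for the 3 labelled cKO. The triangles lie to the left of the circles without overlap for 22 of the 36 genes, and *Sp100*, *Ifit3* and *Ifi35* are among the most abundant.

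**Figure D2:**
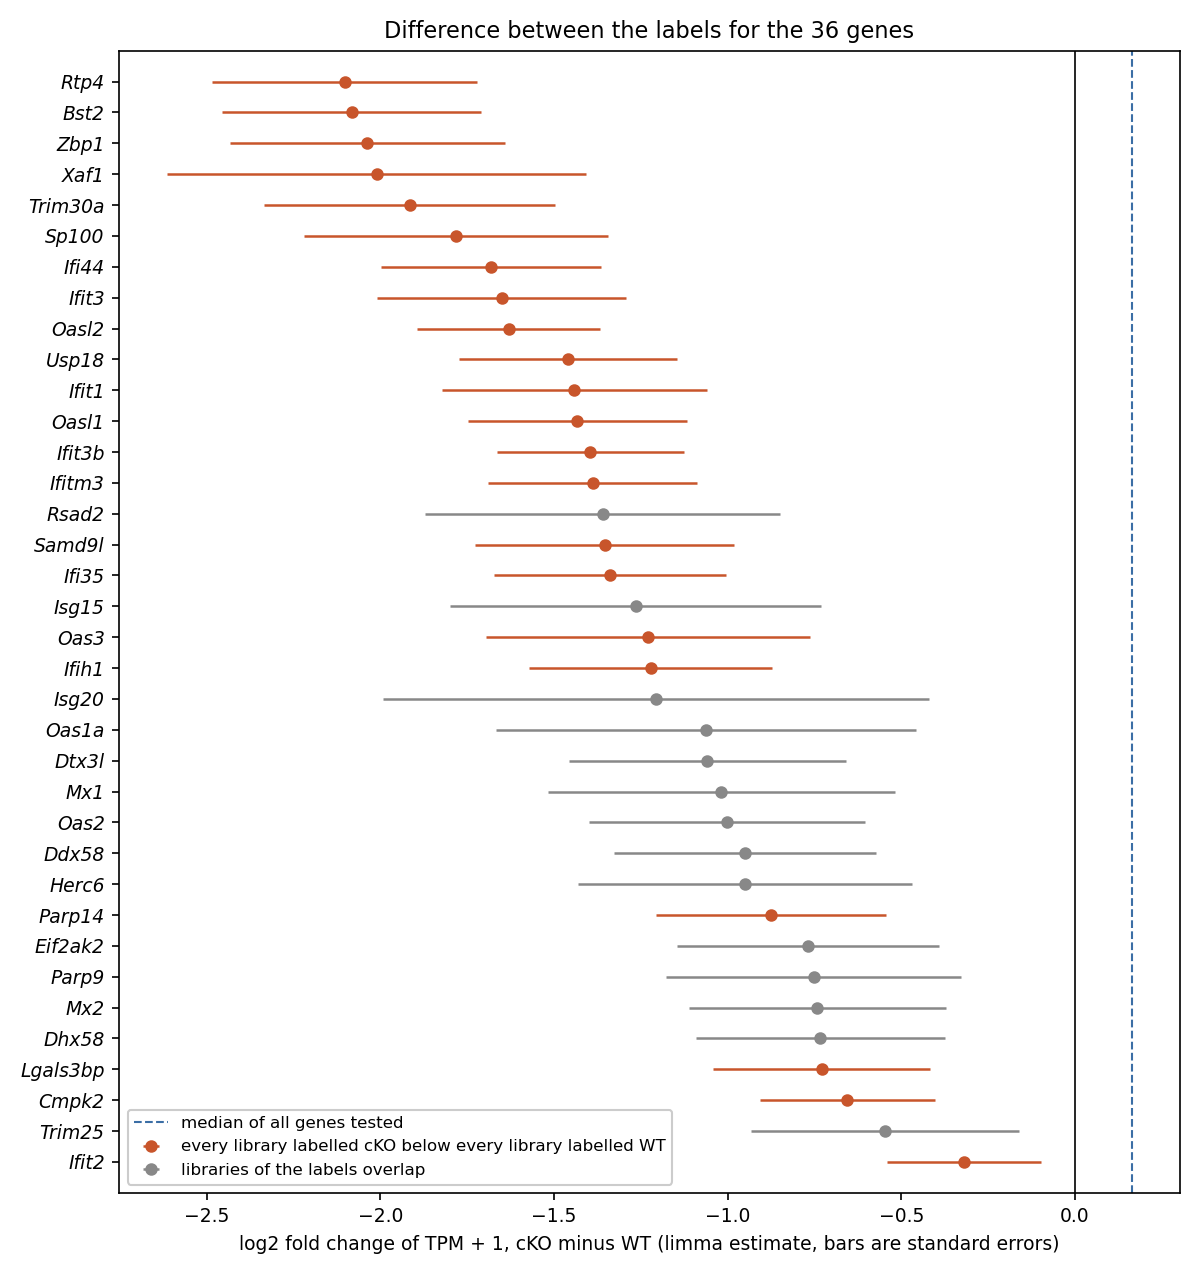
Log2 fold change of TPM + 1 (cKO minus WT) for the 36 genes, with the standard error from limma as bars and the median of all genes tested, 0.16, as a dashed line. All points lie below 0, from -2.10 for *Rtp4* to -0.32 for *Ifit2*.

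Sensors of foreign nucleic acid were lower for 3 of 5 genes at an unadjusted p under 0.05, and 2 of 5 did not overlap between the labels. Over all genes these shares were 6.45% and 7.18%, which also stand beside the counts of each group below. *Ifih1*, which encodes the long double-stranded RNA sensor MDA5, had 33.4, 29.2 and 42.5 TPM in the libraries labelled WT and 12.4, 9.92 and 23.3 TPM in those labelled cKO. The groups did not overlap, and the log2 fold change was -1.22 (SE 0.35, limma adjusted p = 0.156). *Ddx58*, which encodes RIG-I, the sensor of 5′-triphosphate RNA, was the most abundant of the group, with 51.6, 32.0 and 46.4 TPM against 18.3, 14.8 and 36.5 TPM. Replicate 3 labelled cKO lay above replicate 2 labelled WT, and the log2 fold change was -0.95 (SE 0.38, limma adjusted p = 0.248). *Zbp1* encodes a sensor of left-handed nucleic acid that can start necroptosis. It had 57.1, 28.6 and 34.5 TPM under the label WT and 12.7, 5.13 and 9.53 TPM under the label cKO. Its lowest WT value was above its highest cKO value, with a log2 fold change of -2.04 (SE 0.40, limma adjusted p = 0.124). The other two, *Dhx58*, which encodes the regulator LGP2, and *Eif2ak2*, which encodes the kinase PKR that halts translation, overlapped between the labels with log2 fold changes of -0.73 and -0.77. Under the replicate block, *Dhx58* was also lower at an unadjusted p under 0.05 (limma adjusted p = 0.212). That made 4 of 5, beside 8.52% of all genes.

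The 2′-5′-oligoadenylate synthetase (OAS) family makes a second messenger that switches on RNase L. Of its 5 genes, 4 were lower at an unadjusted p under 0.05, beside 6.45% of all genes. *Oasl2*, an OAS-like gene, was by far the most abundant, with 107, 82.1 and 83.2 TPM in the libraries labelled WT and 29.4, 21.3 and 36.6 TPM in those labelled cKO. Its groups stood wide apart, with a log2 fold change of -1.63 (SE 0.26, limma adjusted p = 0.124). *Oasl1*, whose product represses translation of IRF7, had 7.56, 11.4 and 6.95 TPM against 3.41, 2.09 and 2.15 TPM. This too left a gap between the labels, and the log2 fold change was -1.43 (SE 0.31, limma adjusted p = 0.124). *Oas3*, which encodes the largest OAS protein, had 10.2, 3.24 and 8.11 TPM against 3.18, 1.11 and 2.81 TPM. Replicate 2 labelled WT and replicate 1 labelled cKO all but touched, and the log2 fold change was -1.23 (SE 0.47, limma adjusted p = 0.230). *Oas1a* and *Oas2* overlapped between the labels, with log2 fold changes of -1.06 and -1.002. Under the replicate block *Oas1a* passed an unadjusted p of 0.05 and *Oas2* no longer did (limma adjusted p = 0.166 and 0.231). *Oas1a* is 1 of several near-identical mouse copies, so the transcript quantifier could split reads between copies and its level is uncertain.

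IFIT proteins bind viral RNA at its 5′ end and keep it from being translated. The 4 genes lie side by side on chromosome 19 of GRCm38.p6, within chr19:34550550-34650009. All 4 were separated by label, and 3 were lower at an unadjusted p under 0.05, beside 7.18% and 6.45% of all genes. *Ifit3* had 162, 147 and 101.2 TPM in the libraries labelled WT and 38.1, 28.4 and 67.9 TPM in those labelled cKO. The log2 fold change was -1.65 (SE 0.36, limma adjusted p = 0.124). *Ifit3b* had 48.1, 55.2 and 36.9 TPM against 14.3, 15.4 and 21.9 TPM. It too did not overlap (log2 fold change -1.40, SE 0.27, limma adjusted p = 0.124). Reads may be split between *Ifit3* and *Ifit3b*, so the level of each is less certain than that of the pair. *Ifit1*, the cap-binding member, had 69.0, 48.0 and 38.9 TPM against 20.2, 10.7 and 26.6 TPM. The log2 fold change was -1.44 (SE 0.38, limma adjusted p = 0.146). *Ifit2* stood apart from its neighbours, with 25.9, 27.9 and 25.4 TPM under the label WT and 23.9, 17.9 and 21.5 TPM under the label cKO. Its groups did not overlap either, yet the log2 fold change of -0.32 (SE 0.22, limma adjusted p = 0.481) was the smallest of the 36 and came to -0.21 without replicate 2 labelled cKO.

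The unequal difference within the IFIT cluster was compared as a ratio inside each library, which does not depend on scaling between libraries. Pairs were picked after their values were seen. *Ifit3* stood at 6.24, 5.25 and 3.98 times the TPM of *Ifit2* under the label WT and at 1.60, 1.59 and 3.15 times under the label cKO. The ratios did not overlap (log2 difference -1.34, two-sided exact permutation p = 0.1, which is the smallest possible). For *Ifit1* over *Ifit2* the ratios were 2.67, 1.72 and 1.53 against 0.846, 0.599 and 1.23, again without overlap (log2 difference -1.16, exact permutation p = 0.1). *Rsad2* over *Cmpk2*, neighbours on chromosome 12, gave 0.276, 0.106 and 0.277 against 0.120, 0.0535 and 0.157, which overlapped (log2 difference -1.003, exact permutation p = 0.3). *Parp9* over *Dtx3l*, *Oasl2* over *Oasl1* and *Ifit3* over *Ifit3b* gave exact permutation p-values of 0.3, 0.8 and 0.5. Over these 6 pairs, no adjusted p could pass 0.05.

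Mx proteins are dynamin-like GTPases that trap viral nucleocapsids, and C57BL/6 mice carry a defective *Mx1* allele. Neither Mx gene was separated by label, and 0 of 2 were lower at an unadjusted p under 0.05. *Mx2* had 7.68, 3.37 and 8.64 TPM under the label WT and 3.79, 2.97 and 3.12 TPM under the label cKO. Replicate 2 labelled WT lay inside the cKO range, and the log2 fold change was -0.74 (SE 0.37, limma adjusted p = 0.331). *Mx1* had 0.83 to 8.76 TPM and a log2 fold change of -1.02, and under the replicate block it was lower at an unadjusted p under 0.05 (limma adjusted p = 0.132).

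ISG15 is a ubiquitin-like protein that is joined to other proteins after interferon, and this group held its protease, a ligase of the HERC family and the ADP-ribosyl enzymes that work beside it. Of the 7 genes, 4 were lower at an unadjusted p under 0.05 and 2, *Usp18* and *Parp14*, did not overlap between the labels. Over all genes these shares were 6.45% and 7.18%. *Usp18*, which encodes the ISG15 protease that also damps signalling at IFNAR2, was the most abundant, with 54.4, 55.2 and 44.4 TPM in the libraries labelled WT and 21.4, 11.3 and 23.6 TPM in those labelled cKO. The log2 fold change was -1.46 (SE 0.31, limma adjusted p = 0.124). *Isg15* itself had 29.0, 7.18 and 10.8 TPM against 7.72, 3.22 and 4.67 TPM. Replicate 1 labelled WT was more than any other library, the labels overlapped, and the log2 fold change of -1.27 (SE 0.53, limma adjusted p = 0.269) came to -0.73 without that library. *Parp14*, which encodes an ADP-ribosyltransferase, had 10.4, 10.3 and 12.7 TPM against 4.90, 3.95 and 8.77 TPM. The labels were separated by a smaller step (log2 fold change -0.88, SE 0.33, limma adjusted p = 0.228). *Dtx3l* and *Parp9*, which encode a ligase complex and are transcribed from a shared promoter region, had log2 fold changes of -1.06 and -0.75. *Herc6*, which encodes the mouse ISG15 ligase, and *Trim25*, which encodes the ubiquitin ligase acting on RIG-I, had -0.95 and -0.55, and in all 4 of these genes the labels overlapped. The replicate block added *Parp9* and *Herc6* to the genes lower at an unadjusted p under 0.05 (limma adjusted p = 0.189 and 0.167). That made 6 of 7, beside 8.52% of all genes.

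Among effectors at the membrane and on nucleotides, 4 of 5 genes were lower at an unadjusted p under 0.05 and 3 did not overlap. Over all genes these shares were 6.45% and 7.18%. *Bst2*, which encodes tetherin, the protein that holds budding virions at the cell surface, had 145, 103 and 78.8 TPM under the label WT and 27.7, 14.8 and 34.5 TPM under the label cKO. That gap gave a log2 fold change of -2.08 (SE 0.37, limma adjusted p = 0.124). *Ifitm3*, which blocks fusion of virus in endosomes, had 172, 91.9 and 91.4 TPM against 49.9, 38.6 and 40.0 TPM. All cKO values were tightly grouped below the WT values, and the log2 fold change was -1.39 (SE 0.30, limma adjusted p = 0.124). *Ifitm3* has close paralogs, so shared reads are possible. *Cmpk2*, which encodes a mitochondrial nucleotide kinase, had 41.6, 51.4 and 50.4 TPM against 27.2, 24.7 and 39.5 TPM. It did not overlap, with a log2 fold change of -0.66 (SE 0.25, limma adjusted p = 0.235). Its neighbour *Rsad2*, which encodes viperin, the enzyme that makes a chain-terminating nucleotide, had 11.5, 5.48 and 13.9 TPM against 3.27, 1.32 and 6.21 TPM. Replicate 3 labelled cKO lay above replicate 2 labelled WT, and the log2 fold change was -1.36 (SE 0.51, limma adjusted p = 0.227). *Isg20*, an RNA exonuclease gene, was the most uneven, with 20.6, 1.38 and 7.03 TPM against 4.22, 1.997 and 1.15 TPM, so the labels overlapped. Its log2 fold change of -1.21 (SE 0.79, limma adjusted p = 0.451) came to -0.44 without replicate 1 labelled WT and -2.03 without replicate 2 labelled WT.

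The remaining 8 induced genes formed the group with the lowest median log2 fold change of the roles, -1.73. All 8 were separated by label and 7 were lower at an unadjusted p under 0.05, *Lgals3bp* being the exception. Over all genes these shares were 7.18% and 6.45%. *Sp100*, a component of PML nuclear bodies, was the most abundant interferon-stimulated gene here, with 194, 76.5 and 164 TPM in the libraries labelled WT and 54.7, 24.1 and 42.9 TPM in those labelled cKO. The log2 fold change was -1.78 (SE 0.44, limma adjusted p = 0.134). *Rtp4*, which encodes a chaperone of receptors, had 125, 85.1 and 71.0 TPM against 31.0, 12.2 and 22.4 TPM. No other interferon-stimulated gene had a lower log2 fold change than its -2.10 (SE 0.38, limma adjusted p = 0.124). *Ifi35*, a leucine-zipper protein gene, was even among WT libraries, with 111, 129 and 118 TPM against 39.1, 32.96 and 77.7 TPM. Its log2 fold change was -1.34 (SE 0.33, limma adjusted p = 0.138).

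Within the same group, *Trim30a*, a TRIM family gene with near copies in tandem, had 49.7, 27.7 and 51.2 TPM against 14.4, 5.50 and 13.1 TPM. The gap between the labels gave a log2 fold change of -1.92 (SE 0.42, limma adjusted p = 0.124), and reads may be shared with its copies. *Xaf1*, which encodes an antagonist of the caspase inhibitor XIAP, had 22.2, 72.9 and 23.7 TPM against 15.4, 3.75 and 7.34 TPM. Replicate 2 labelled WT was far above the others, and the log2 fold change was -2.01 (SE 0.60, limma adjusted p = 0.167). *Ifi44* had 15.1, 9.91 and 12.7 TPM against 3.62, 2.08 and 4.09 TPM. Its libraries did not overlap (log2 fold change -1.68, SE 0.32, limma adjusted p = 0.124). *Samd9l*, whose product restrains growth and viral translation, had 16.4, 14.6 and 20.4 TPM against 6.46, 3.41 and 9.59 TPM. The labels were again apart (log2 fold change -1.35, SE 0.37, limma adjusted p = 0.151). *Lgals3bp*, which encodes a secreted galectin-binding protein, had a log2 fold change of -0.73, and it passed an unadjusted p of 0.05 under the replicate block (limma adjusted p = 0.227).

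Across libraries, the summed TPM of the 36 genes was 1792, 1320.1 and 1368 in replicates 1, 2 and 3 labelled WT and 578, 377 and 691 in those labelled cKO. The means were 1494 ± 259.8 TPM (SD, n = 3) and 549 ± 159 TPM (SD, n = 3), with an exact two-sided permutation p of 0.1, the smallest possible. Replicate 2 labelled cKO was the lowest of the 6 libraries for 30 of the 36 genes, and replicate 1 labelled WT was the highest for 19. The median log2 fold change was -0.998 without replicate 2 labelled cKO. Leaving it out also left 18 genes lower at an unadjusted p under 0.05, beside 3.97% of all genes. For *Ifit2*, *Eif2ak2*, *Mx1* and *Herc6* the log2 fold change was smaller by over 1.5 times without that library, and the same held for *Dhx58*, *Oas1a*, *Isg15*, *Isg20* and *Lgals3bp* without replicate 1 labelled WT. *Trim25* moved by over 1.5 times without replicate 1 or 3 labelled cKO and *Parp9* without replicate 2 labelled WT.

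The genes that carry the interferon signal were examined from a list of 42, of which 30 passed the filter. At an unadjusted p under 0.05, 14 of the 30 were lower and 0 higher, beside 6.45% of all genes lower and 11.9% higher. Of the 30, 13 were lower without overlap between the labels, beside 7.18% of all genes. The median log2 fold change of the 30 was -0.51. None passed an adjusted p of 0.05. Among the ligands, *Ifna1*, *Ifna2*, *Ifna4*, *Ifna5*, *Ifnab*, *Ifnb1*, *Ifnl2* and *Ifnl3* were listed at 0 in all 6 libraries, and *Ifne* at 0.296 TPM in replicate 3 labelled WT alone. *Ifng*, which encodes interferon gamma, had 159, 15.2 and 117 TPM under the label WT and 29.2, 6.88 and 20.5 TPM under the label cKO. Replicate 2 labelled WT lay inside the cKO range, and the log2 fold change was -1.97 (SE 0.91, limma adjusted p = 0.303). Each library labelled cKO was below the WT library of the same number, and under the replicate block *Ifng* was lower at an unadjusted p under 0.05 (limma adjusted p = 0.0762), so 15 of the 30 were. Among the 11 ligand genes looked up, RNA was listed for interferon gamma, for *Ifnk* at 1.28 to 2.77 TPM, and for *Ifne* in 1 library. Interferon genes outside this list were not looked up.

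Of 5 receptor genes that passed the filter, *Ifnar2*, *Ifngr1* and *Il10rb* were lower at an unadjusted p under 0.05, with log2 fold changes of -0.73, -0.71 and -0.87. *Ifnar1* had 36.6 to 52.3 TPM with a log2 fold change of -0.11. None of the 3 kinase genes *Jak1*, *Jak2* and *Tyk2* was lower at that level, and their log2 fold changes were -0.21 to -0.26. Of 8 transcription factor genes, 6 were lower at an unadjusted p under 0.05 and did not overlap. Over all genes, 6.45% were lower at that level and 7.18% were lower without overlap. *Irf8*, a factor of myeloid cells and lymphocytes, had the lowest log2 fold change of the group at -1.73, and *Irf7*, the factor that amplifies type I interferon, had -1.66. *Irf1*, *Irf9* and *Irf5* had -1.26, -1.13 and -1.03. *Stat2* and *Irf3*, by contrast, had -0.32 and -0.13 and overlapped between the labels.

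Among genes of sensing and its adaptors, 3 of the 8 that passed the filter were lower at an unadjusted p under 0.05, the kinase gene *Ikbke* at -1.72, the adaptor gene *Myd88* at -0.95 and the endosomal RNA sensor gene *Tlr7* at -0.85. The share of all genes lower at that level was 6.45%. *Mavs*, *Tbk1* and *Tmem173*, which relay the signal of RIG-I, MDA5 or cytosolic DNA, had log2 fold changes of -0.29, 0.17 and 0.21 and overlapped. Of 4 inhibitor genes, *Socs1* and *Socs3*, which block JAK kinases and are induced by cytokines, were lower at an unadjusted p under 0.05, with log2 fold changes of -1.79 and -0.98. *Pias1* and *Ptpn2*, inhibitors that do not depend on induction, had 0.43 and 0.38.

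A separate list of 17 genes held GTPases, chemokines and *Ciita* that respond mainly to interferon gamma. At an unadjusted p under 0.05, 16 of the 17 were lower, *Ciita* being the exception, and 15 did not overlap. Over all genes these shares were 6.45% and 7.18%. The median log2 fold change was -1.74, beside -1.25 for the 36 interferon-stimulated genes, a difference that was not tested. *Iigp1*, an immunity-related GTPase gene, had the lowest value, -2.65 (SE 0.56, limma adjusted p = 0.124). Its libraries labelled WT had 110.3, 47.8 and 49.7 TPM and those labelled cKO 14.0, 3.64 and 15.1 TPM. *Gbp6* was the most abundant, with 234, 165 and 185 TPM against 57.5, 20.2 and 98.7 TPM. The summed TPM of the list was 844 to 1776 under the label WT and 161 to 445 under the label cKO.

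Markers of leukocytes differed between the labels in the same direction as the interferon-stimulated genes, and markers of rods in the opposite one. Of the 10 T cell markers, 9 were lower at an unadjusted p under 0.05, beside 6.45% of all genes. All 10 had a log2 fold change below 0, with a median of -2.09. Their summed TPM was 902 to 2738 under the label WT and 230.4 to 571 under the label cKO, and none of the 10 was at 0 in any library. *Trac*, the constant part of the T cell receptor alpha chain, had 952, 334 and 771 TPM against 203, 79.2 and 199 TPM. For B cells, 4 of the 5 markers that passed the filter were lower at that level, with sums of 81.2 to 236 TPM against 34.4 to 55.4 TPM, and *Pax5* was listed at 0 in 2 libraries. For NK cells, 2 of 3 were lower, with sums of 42.4 to 100.3 TPM against 8.08 to 21.4 TPM, and *Klra8* was listed at 0 in 3 libraries. For myeloid cells, including microglia, 4 of 11 were lower, with sums of 1472 to 2150.15 TPM against 612 to 831 TPM.

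*Lyz2*, a gene of macrophages and neutrophils, had the lowest log2 fold change of the myeloid list at -1.80, while *P2ry12*, a marker of resting microglia, had 0.10. Markers of plasmacytoid dendritic cells, a source of type I interferon, were lower for 0 of 4, with overlapping sums of 365 to 547 TPM and 352 to 523 TPM. Most of that sum was *Tcf4*, which other cells also express and which had a log2 fold change of -0.06. The more specific *Siglech* had 51.6, 17.9 and 26.7 TPM under the label WT and 13.5, 18.0 and 16.7 TPM under the label cKO, which overlapped, and its log2 fold change was -0.83, beside -0.92 for *Ccr9*. All 7 rod markers were higher at an unadjusted p under 0.05, with a median log2 fold change of 1.46 and sums of 12166 to 16988 TPM against 24865 to 47441.5 TPM. RGC markers were higher at that level for 2 of 9, *Thy1* and *Tubb3*, beside 11.9% of all genes. The RGC sums were 144 to 205 TPM against 227 to 253 TPM. Most of each sum was *Thy1* and *Isl1*, which other cells also express. Of the 9 RGC markers, 3 had a log2 fold change below 0, *Rbpms* at -0.41, *Pou4f1* at -0.64 and *Sncg* at -0.83. These 3 overlapped between the labels. Among Mueller glia and astrocyte markers 1 of 6, *Gfap*, was lower, and among endothelial and pericyte markers 1 of 5, *Cldn5*, beside 6.45% of all genes. The replicate block made the endothelial and pericyte count 3 of 5, with *Pecam1* and *Rgs5*, and the B cell count 5 of 5, with *Ms4a1*. Under that block 8.52% of all genes were lower. Within the libraries labelled cKO, replicate 2 had the lowest sum of interferon-stimulated genes, of interferon gamma-induced genes, of T cell markers and of NK cell markers. Within those labelled WT, replicate 1 had the highest sum of all 4 lists. B cell and myeloid sums did not follow this order. Among libraries labelled cKO, the B cell sum was highest in replicate 2 (55.4 TPM) and the myeloid sum lowest in replicate 3 (612 TPM). Among those labelled WT, the B cell sum was highest in replicate 1 (236 TPM) and the myeloid sum in replicate 3 (2150.15 TPM). The part of the makeup of the libraries in the lower interferon-stimulated RNA was not tested.

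**Figure D3:**
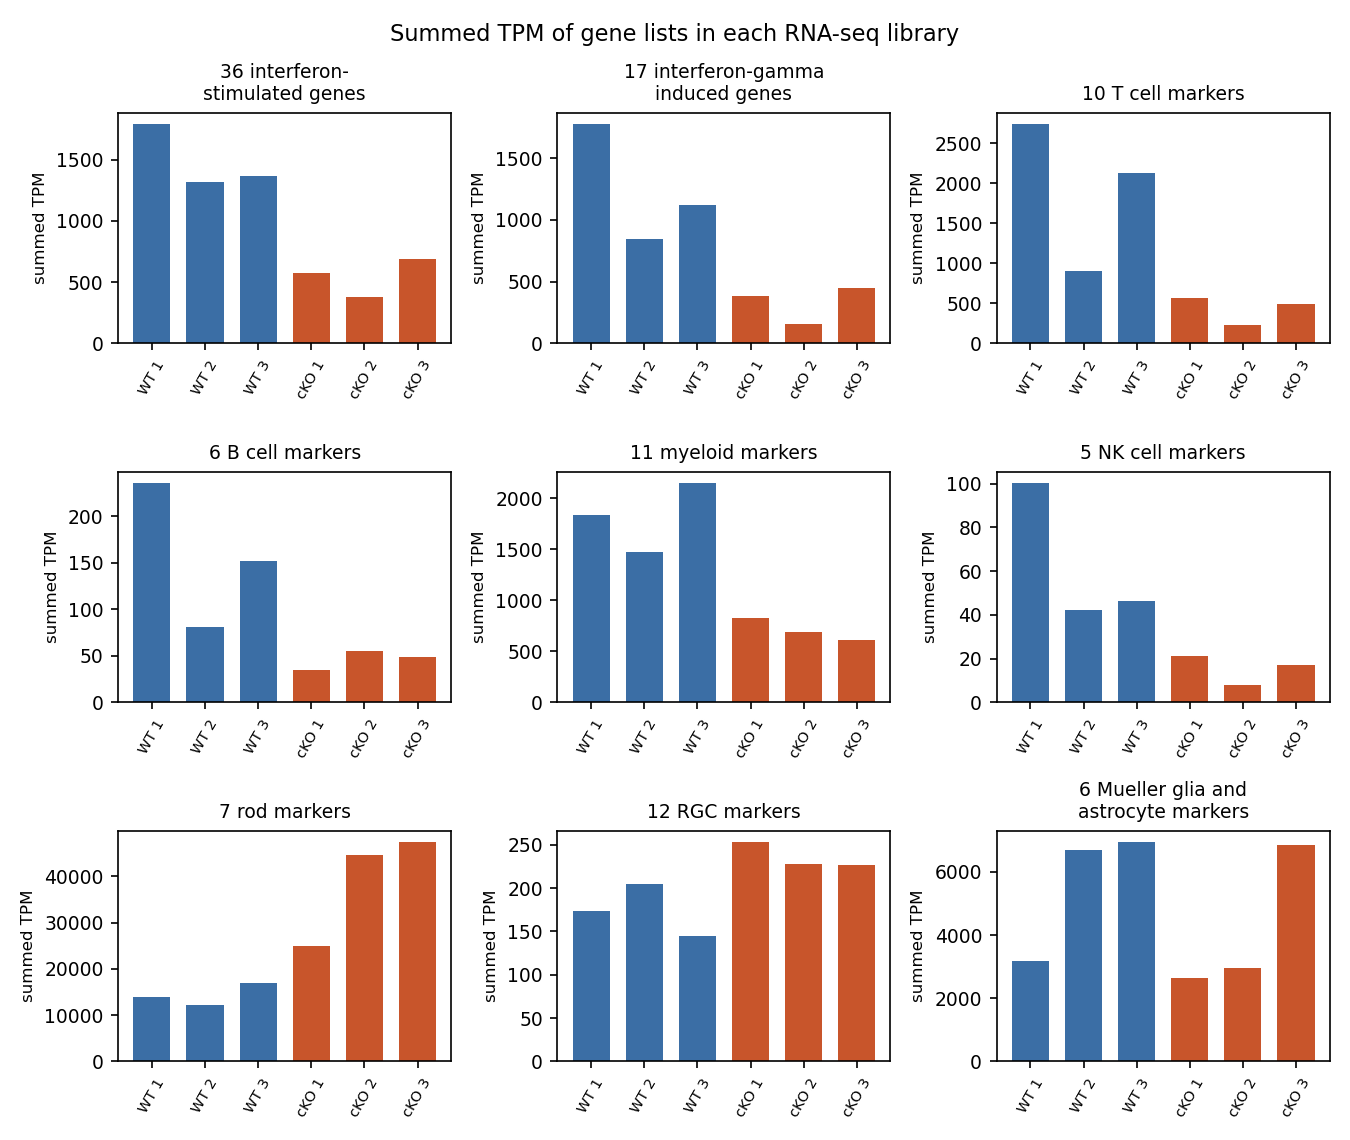
Summed TPM of each gene list (bars, axes from 0) in each of the 3 WT and 3 cKO RNA-seq libraries by label. The interferon-stimulated sum is 1320.1 to 1792 TPM under the label WT and 377 to 691 TPM under the label cKO, T cell and interferon gamma lists are lower alongside it, and the rod sum is higher.

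Open chromatin at these genes was compared from the group values of the deposited table, which are the log2 of mean normalized reads and carry no spread between libraries. Of the 36 genes, 8 (22.2%) had a region within 1000 bp of an end, beside 51.5% of the genes tested by RNA-seq that have a position. These 8 were *Cmpk2*, *Mx2*, *Ifit2*, *Usp18*, *Trim25*, *Dtx3l*, *Parp9* and *Zbp1*, and they held 8 regions, since *Dtx3l* and *Parp9* share 1 and *Dtx3l* has a second. By over 1 on the log2 scale, 6 of the 8 regions were lower in cKO, beside 88.8% of the 8002 regions at gene ends and 59.6% of all 16600 regions. The median difference was -1.21 at the interferon-stimulated genes and -2.50 at all gene ends. With 8 regions, a count of 6 is near the share at all gene ends. The median difference was smaller in size than at all gene ends, and the median WT value was lower too, 4.10 beside 4.97. None of these differences was tested.

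The region at the start of *Cmpk2* (chr12:26468984-26470313) had the highest WT value and the largest difference, 5.62 in WT and 3.20 in cKO, or -2.42. At *Mx2* (chr16:97534819-97535820) the values were 5.08 and 3.23, or -1.85. At *Ifit2* (chr19:34550458-34551301), whose RNA differed least, they were 4.61 and 3.12, or -1.49. The regions of *Usp18* (chr6:121245239-121246180) and *Trim25* (chr11:88998951-88999425) differed by -1.28 and -1.14. The region shared by *Dtx3l* and *Parp9* (chr16:35938660-35939195) had 3.68 in WT and 2.64 in cKO. It covers an end of *Dtx3l* and lies inside *Parp9*, since the positions of the 2 genes overlap. *Zbp1* (chr2:173218213-173219290), among the genes with the lowest RNA fold change, had the smallest drop in reads, from 4.24 to 3.46, or -0.78. The other end of *Dtx3l* (chr16:35926909-35927585) went the other way, from 1.86 to 3.41, and both cKO libraries, but no WT library, held a peak there.

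Peaks, which the authors called in each library, gave the same kind of count per library. A peak lay within 1000 bp of an end for 20 (55.6%) and 10 (27.8%) of the 36 genes in WT replicates 1 and 2, beside 65.1% and 58.2% of genes tested. In cKO replicates 1 and 2 it was 6 (16.7%) and 7 (19.4%), beside 13.6% and 13.9%. *Ddx58*, *Ifit2*, *Usp18* and *Trim25* had a peak in both WT libraries and no cKO library, *Oas3*, *Mx2*, *Parp9* and *Cmpk2* in both WT and 1 cKO library, and *Dtx3l* in all 4. *Rtp4* and *Xaf1* had a peak in cKO replicate 2 and in no other library. In neither WT library was there a peak at an end of 15 genes, among them *Rtp4*, *Xaf1*, *Trim30a*, *Sp100*, *Ifi44*, *Ifit3*, *Ifitm3* and *Ifi35*. A peak that was not called says only that the signal did not pass the caller's threshold at a depth unknown here.

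Chromatin and RNA values of the same genes were then set side by side. The 9 genes with a peak in both WT libraries had a median RNA log2 fold change of -0.75 (range -1.46 to -0.32), the 12 with a peak in 1 WT library had -1.29, and the 15 with none had -1.39 (range -2.10 to -0.73). The 8 genes with a region in the table had a median of -0.75, with 4 of 8 lower at an unadjusted p under 0.05, and the 28 without had -1.35, with 21 of 28. Over all genes tested, 3.85% of those with a region and 10.5% of those without were lower at that level. *Rtp4*, *Xaf1*, *Trim30a* and *Sp100*, with the fold changes of -2.10 to -1.78 given above, had no region and no WT peak at an end, and *Rtp4* and *Xaf1* had the cKO peak named above. In the same range, *Bst2* (-2.08) and *Zbp1* (-2.04) each had a peak in 1 WT and 1 cKO library, and *Zbp1* had a region. These medians describe genes, which are not replicates, and their difference was not tested.

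**Figure D4:**
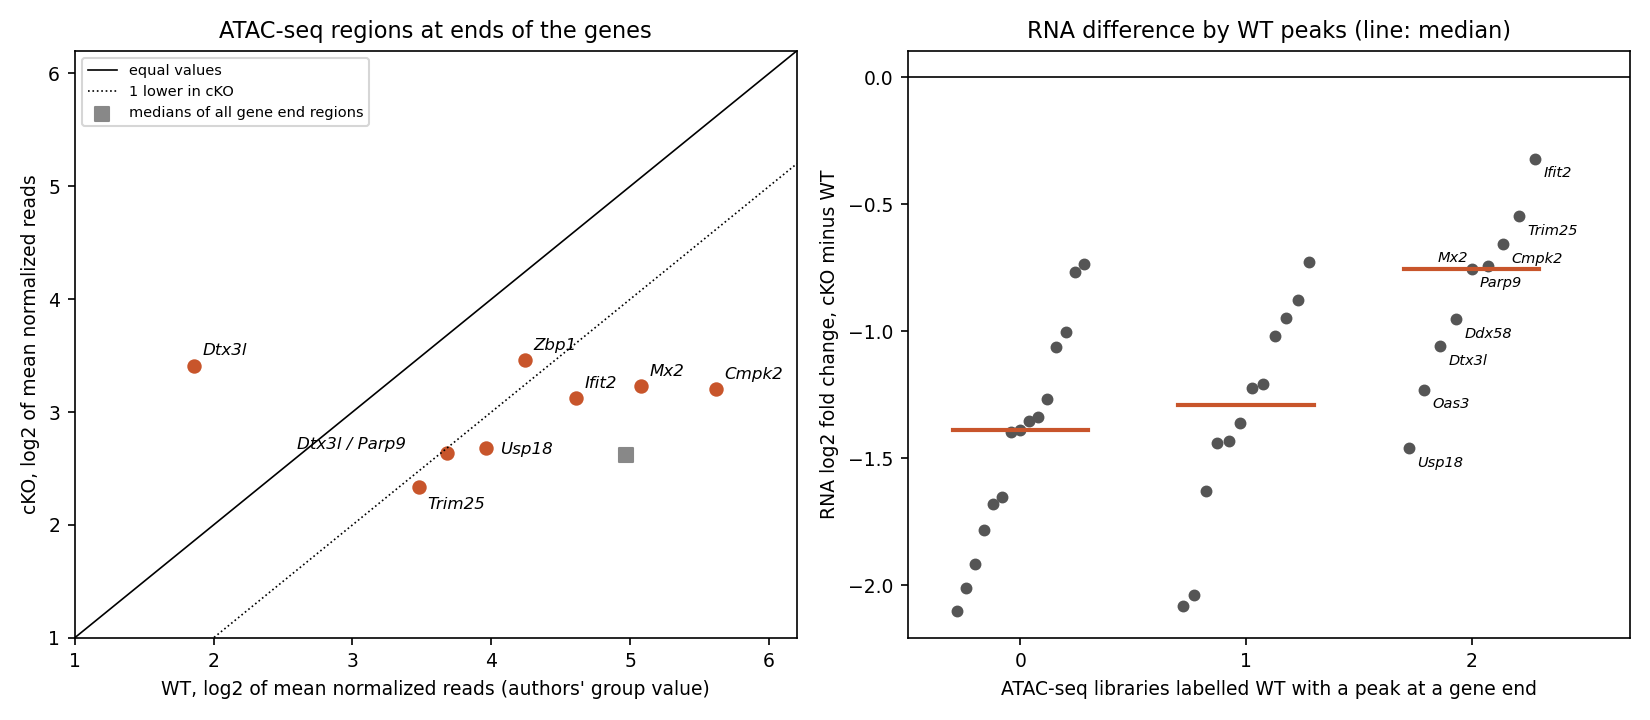
Left, the authors' group value of log2 mean normalized reads in WT and cKO for the 8 ATAC-seq regions at ends of interferon-stimulated genes, with lines at equality and at 1 lower in cKO, and the medians of all gene end regions (4.97 and 2.62) as a square. Right, the RNA log2 fold change of the 36 genes by the number of WT ATAC-seq libraries with a peak at an end, with medians of -1.39, -1.29 and -0.75 as lines.

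The promoter letters shown at the start were set beside these values as well. The 13 genes that held the ISRE core had a median RNA log2 fold change of -1.36, and the other 14 genes with a promoter sequence had -1.27. None of the 13 had a region at an end in the deposited comparison, where 4 of the 27 genes with a promoter sequence had one. Of the 13, 2 (*Ddx58* and *Oas3*) had a peak at an end in both WT libraries, 4 in 1 WT library and 7 in none. *Ifit2* and *Cmpk2*, printed above without a match, had peaks in both WT libraries and RNA log2 fold changes of -0.32 and -0.66, while *Ifit1* and *Rsad2*, printed with a match, had a peak in 1 WT library each and -1.44 and -1.36. With 4 genes these values are a description.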

How the data were processed

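Titles of the samples gave the groups, with 3 WT and 3 cKO libraries of RNA-seq and 2 of each of ATAC-seq. The authors quantified reads with Salmon, summed transcripts to genes with tximport, and deposited TPM values of 53974 genes, which sum to 995278 to 999315 in each library with no further scaling. The authors' RNA-seq comparison, made with DESeq2, and the Fold, p-value and FDR columns of their ATAC-seq comparison were not used. From that ATAC-seq table, the deposited log2 of mean normalized reads in each group was taken, made with DiffBind after alignment to GRCm38. The submitters' processing notes name Bowtie2 2.3.5.1, MACS2 2.2.5, Salmon 1.0.0 and DESeq2 1.26.0. Peak lists per library gave positions alone, and starts were counted from 1 for printing.

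A gene was tested where 3 or more of the 6 libraries had a TPM of 1 or above. On log2(TPM + 1), limma 3.58.1 under R 4.3.3 was run with moderated variances that follow a trend, p-values were adjusted over all 17555 genes by the Benjamini-Hochberg method with a threshold of 0.05, and the script was first tested on simulated data. Unadjusted counts are read beside the share of all genes. The study calls its ATAC-seq samples biological replicates. How the RNA-seq libraries of a label were divided over animals is not given in the sources used here, so their p-values measure the spread between these libraries, which may be partly technical. Deviations of same-numbered WT and cKO libraries across genes had correlations of 0.334, 0.101 and 0.425, and those of other pairs -0.386 to 0.193. Replicate 1 labelled WT and replicate 2 labelled cKO, at 0.193, exceeded the pair numbered 2. The replicate number was used as a block in an alternative fit. Regions and peaks were assigned to a gene within 1000 bp of either end of its RefSeq position on GRCm38.p6, with an overlap of at least 1 bp, since the position table gives no strand. Starts farther inside a gene were therefore not covered. Of the genes tested, 15516 have a position. Promoters came from RefSeq on the same build and were searched on both strands. Python 3.11.15 with pandas 2.3.3 and scipy 1.17.1 was used, with matplotlib 3.10.9 for the figures.

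The 36 genes, the lists and the tests were chosen with earlier results of these data known. Values per library were printed for genes whose labels do not overlap with a log2 fold change of at least 1 in size, for the most abundant gene of each role and for *Arid1a*. Genes of the lists were named where they are the highest or most changed or are listed at 0. *Cmpk2*, *Ifit2*, *Isg15*, *Isg20*, *Parp14*, *Rsad2* and further list genes were named after their values were seen. Some genes of the lists are not reported here by name. Alternatives were a pseudocount of 0.1, no filter, median-of-ratios scaling, a mean TPM of 5 or above, no trend, the replicate block, leaving out each library, a window of 3000 bp, a difference over 2 and at least 50% of a peak inside the window.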

Additional observations from a re-analysis of the deposited data

How the results depend on the processing

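Across all alternatives the 427 recomputed log2 fold changes of the 36 genes lay below 0, from -2.47 to -0.21, and none passed an adjusted p of 0.05 in limma. The count lower at an unadjusted p under 0.05 (25 of 36) was 23 to 30 under other settings, 23 of 31 tested at a mean TPM of at least 5, and 18 to 29 on leaving out single libraries. The share of all genes lower was 4.06% to 9.54% under other settings and 3.97% to 7.90% on leaving out single libraries. The replicate block gave 30, with 0 past an adjusted p of 0.05 (lowest 0.0585). It gained 6 genes at the unadjusted level (*Dhx58*, *Oas1a*, *Mx1*, *Herc6*, *Parp9* and *Lgals3bp*), lost *Oas2*, and gained *Ifng* in the pathway list. Leaving out each library gave a median of -1.40 to -0.998, 10 to 15 lower genes of the interferon pathway list, and 0 higher. Separation of the labels is easier with fewer libraries, so the count of genes without overlap is not given for these fits. Scaling by the median of ratios moved the share of higher genes among all genes at an unadjusted p under 0.05 from 64.9% to 44.4%. It gave 25 of the 36 genes lower, beside 9.54% of all genes. A difference over 2 left 1 of the 8 regions, *Cmpk2*. A window of 3000 bp gave peaks at 13 and 11 genes (36.1% and 30.6%) in cKO replicates 1 and 2, beside 30.7% and 32.3% of genes tested, and at 24 and 14 (66.7% and 38.9%) in WT replicates 1 and 2, beside 74.9% and 66.9%. The count without overlap has no value of its own under the block, without the trend or with the other pseudocount. The ATAC-seq group values allow no fit with a block, and peaks were counted per library with no test. Depth is unknown, so genes listed at 0 may lie under an unknown limit of detection.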
